A study of Mus musculus with 6 samples.

Results

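The RAB GTPases measured here were the 59 protein-coding genes whose symbols are Rab, a number and at most a letter and a digit, found among the 56953 gene identifiers of an RNA sequencing table by matching the identifiers to GENCODE mouse annotation. They were grouped by the compartment where the protein is best known to act. The table came from mouse embryonic fibroblasts (MEFs), connective tissue cells grown from mouse embryos, and held 3 libraries labelled WT and 3 labelled GαqKO. Per the study's methods, the second cells are a Gαq/11 knockout line, referred to there as GαqKO. Both kinds of MEFs came from another laboratory and were cultured in the same serum-containing medium, per those methods. They name no treatment for the RNA libraries and do not give the confluence or time in culture of those cells. The number of embryos or clones behind each line was not given in the sources used here, so although the study describes the libraries as biological replicates, the p-values below measure only the spread between them.

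RAB proteins are small GTPases of the RAS superfamily that mark the membranes of the secretory and endocytic pathways. A RAB is switched on by a guanine nucleotide exchange factor, which loads GTP, and switched off by a GTPase-activating protein. In the GTP form it recruits effectors, such as tethers, motors and sorting factors, that move, dock or fuse vesicles. Lipid tails added by geranylgeranyl transferase hold it on the membrane, and GDP dissociation inhibitors lift it off again. In fibroblasts these proteins route collagen and other cargo outwards, and sort internalised receptors between recycling and lysosomal breakdown.

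Each value was a normalized count, the reads of a gene scaled by the size factor of its library. These values summed to between 11392429 and 11483486 per library. Gnaq (chromosome 19, 16110027 to 16365882, GRCm39), the gene of Gαq, had 1690.8 ± 48.5 normalized counts in WT and 1926.3 ± 36.0 in the libraries labelled GαqKO (SD, n = 3 each), which is a log2 fold change of 0.19 (adjusted p = 0.00212, limma). Gna11 went from 2147.9 ± 29.0 to 451.6 ± 28.7 (SD, n = 3 each; log2 -2.25). By Western blot and immunofluorescence, the study reports that its GαqKO MEFs lacked Gαq. Gene counts do not show whether a transcript is intact. Since Gnaq was not lower, the libraries are called by their labels and every direction below rests on those labels. Among the libraries labelled GαqKO, 5 of 10 fibroblast markers were higher and 5 lower. Vim, Col1a1 and Fn1 were high in every library, the lowest value being 5461.1 for Col1a1, while Thy1 had a mean of 0.7 in WT against 64.9 and Pdgfra 19.6 against 2319.7. The summed epithelial markers ran from 515.1 to 540.8 in WT and from 10.0 to 23.2 in the libraries labelled GαqKO, with Cdh1 and Krt14 high in WT, Epcam at a mean of at most 4.6 and Krt5 at most 0.3. Of the endothelial, macrophage and skeletal muscle markers, 1, 2 and 1 were tested, and Cd68 of macrophages was lower (log2 -0.48). The part of these marker differences in the RAB results was not tested.

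Of the 59 RAB genes, 42 had enough reads to be tested, meaning 10 or more normalized counts in 3 or more libraries. At an adjusted p under 0.05 (limma, Benjamini-Hochberg over the 14096 genes tested), 11 rose in the libraries labelled GαqKO, 13 fell and 18 were not called. These were 26.2% and 31.0% of the RAB genes tested, beside 31.8% higher and 34.1% lower among all genes. The median absolute log2 fold change was 0.26 for the RAB genes and 0.394 for all genes. With a log2 fold change over 1 or under -1 as well, 3 RAB genes were higher (Rab7b, Rab22a and Rab30) and 2 lower (Rab29 and Rab3b), where 10.2% and 10.5% of all genes passed. Without WT replicate 1, 2 or 3 only 3 passed, since Rab29 and Rab3b, with fewer than 10 normalized counts in the other group, were then not tested. The 3 WT values did not overlap the 3 others in 29 of the 42 RAB genes (69.0%), beside 69.6% of all genes. In both their counts and the share without overlap, the RAB genes thus lay near or below the background, and the account below concerns single members.

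**Figure D1:**
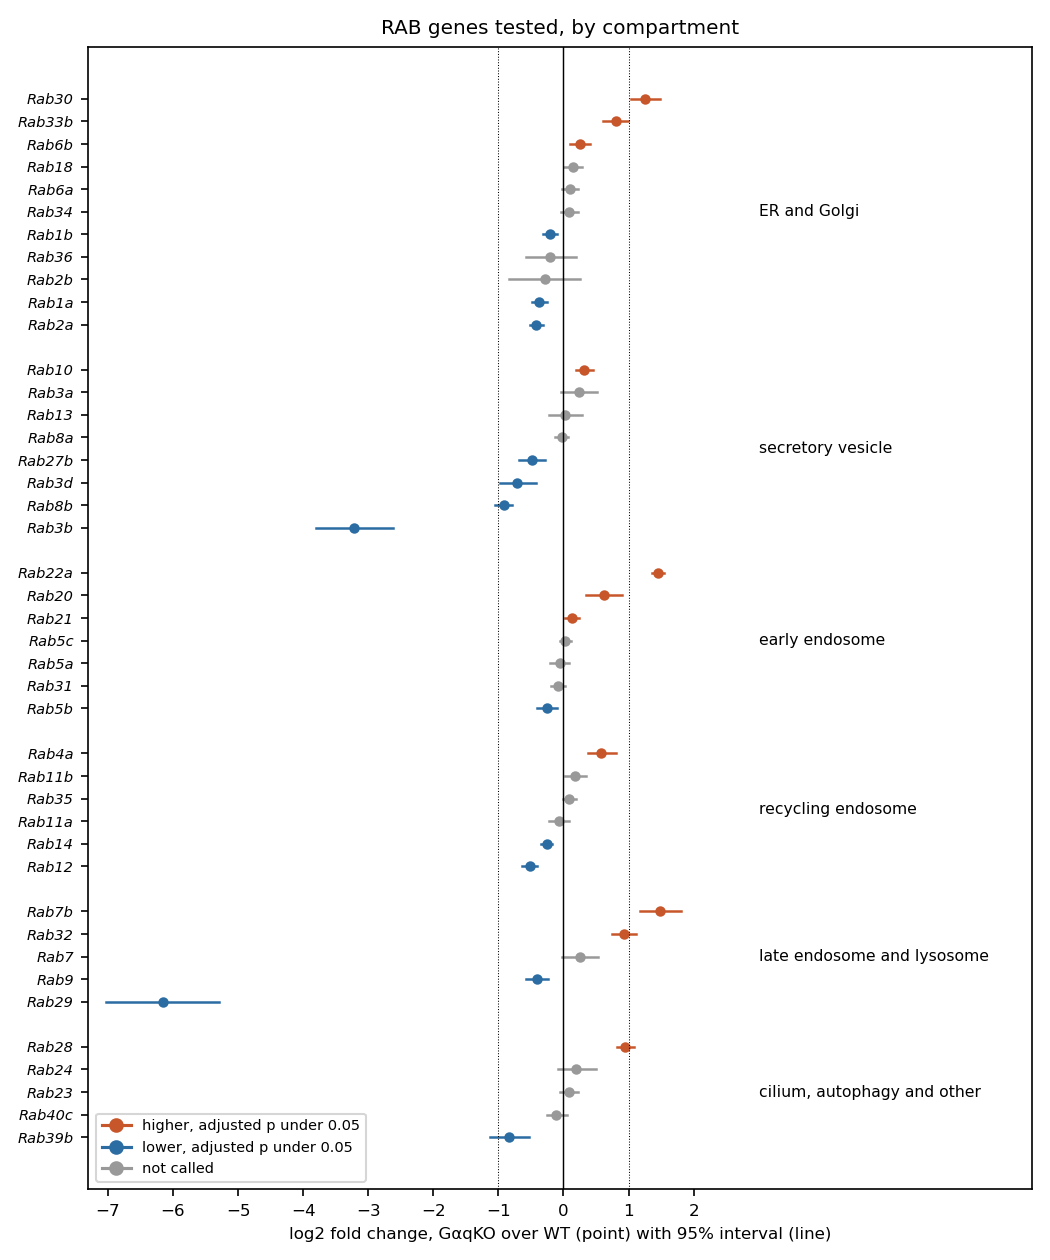
Log2 fold change of each of the 42 RAB genes tested, GαqKO over WT (x axis), with its 95% interval, grouped by compartment (y axis), from 3 libraries a group. Most points lie between the dotted lines at -1 and 1, with Rab7b, Rab22a and Rab30 to the right, and Rab3b (-3.22) and Rab29 (-6.16) far to the left.

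The stretches of 250 bases before the annotated transcription start were taken from RefSeq (GRCm38.p6, another build than that of the count table) for the 48 RAB genes with an entry, which have 60 such stretches in all. Rab7b and Rab30 are not in that table. Those of the 5 members of largest log2 fold change with an entry are given, as the DNA next to the start of genes that the results turn on, 5′ to 3′ on the strand of the gene, with a CCAAT box (CCAAT or its reverse complement) in capitals.
Rab22a, chr2:173659595-173659844, plus strand: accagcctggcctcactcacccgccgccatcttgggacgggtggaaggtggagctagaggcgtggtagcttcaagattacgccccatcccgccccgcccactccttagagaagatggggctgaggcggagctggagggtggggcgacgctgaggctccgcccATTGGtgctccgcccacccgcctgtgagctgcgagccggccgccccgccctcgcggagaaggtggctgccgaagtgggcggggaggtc
Rab28, chr5:41708180-41708429, minus strand: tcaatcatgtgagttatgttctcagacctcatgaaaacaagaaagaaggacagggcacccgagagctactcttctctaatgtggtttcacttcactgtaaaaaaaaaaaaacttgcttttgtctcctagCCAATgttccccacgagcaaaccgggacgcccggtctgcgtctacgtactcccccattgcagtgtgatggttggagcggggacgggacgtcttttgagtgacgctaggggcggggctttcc
Rab32, chr10:10558208-10558457, minus strand: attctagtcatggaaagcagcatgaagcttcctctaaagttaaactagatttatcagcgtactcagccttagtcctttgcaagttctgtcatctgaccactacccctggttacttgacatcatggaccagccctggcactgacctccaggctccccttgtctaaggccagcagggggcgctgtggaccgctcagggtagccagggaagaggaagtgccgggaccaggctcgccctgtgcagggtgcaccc
Rab29, chr1:131867027-131867276, plus strand: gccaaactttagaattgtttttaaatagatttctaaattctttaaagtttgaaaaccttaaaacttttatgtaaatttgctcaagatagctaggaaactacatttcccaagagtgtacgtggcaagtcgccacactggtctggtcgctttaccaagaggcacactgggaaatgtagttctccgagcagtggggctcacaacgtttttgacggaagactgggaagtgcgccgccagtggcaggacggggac
Rab3b, chr4:108878820-108879069, plus strand: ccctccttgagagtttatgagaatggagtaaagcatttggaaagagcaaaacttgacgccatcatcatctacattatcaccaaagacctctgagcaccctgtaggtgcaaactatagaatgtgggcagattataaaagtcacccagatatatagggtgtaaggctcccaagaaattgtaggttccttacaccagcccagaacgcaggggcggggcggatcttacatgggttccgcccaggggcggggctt
Of these 5 stretches, those of Rab22a and Rab28 hold a CCAAT box. The sequence before Rab22a is rich in G and C (70.0%), while that of Rab32 has few CpG pairs for its base composition (an observed to expected ratio of 0.26), and those of Rab28, Rab29 and Rab3b had 0.76, 0.75 and 0.40. The median ratio was 0.72 for the RAB stretches and 0.37 for the 32851 stretches of the whole table.

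Per kb of exon, a few RAB genes made up much of the summed level. In WT, Rab1b (1095 normalized counts per kb), Rab1a (989), Rab5c (674.1) and Rab2a (448) made up 42.1% of the summed level of all 59 genes. The summed level per kb was 7617 ± 195 in WT and 7521 ± 51.1 in the libraries labelled GαqKO (SD, n = 3 each), a ratio of 0.99. Within this total the compartments had ratios on both sides of 1. The ratio was 0.90 for ER and Golgi, 0.94 for secretory vesicles and 0.95 for recycling endosomes, against 1.17 for early endosomes, 1.32 for late endosomes and lysosomes and 1.05 for the remaining genes. In none of these compartments did the summed levels of the WT libraries overlap those labelled GαqKO. Among all single genes tested, 69.6% did not overlap either, and sums of other gene sets were not taken. Single members carried the endosomal rises. Without Rab22a the early endosome ratio was 1.02. The late endosome ratio was 0.58 without Rab7b and Rab32, which rose, and 1.61 without Rab29, which fell. The falling sums were not taken without single members. Rab8b went from 209.3 to 110.6 per kb, where the secretory vesicle sum went from 953.1 to 897.6. Rab12 went from 184.9 to 128.6, where the recycling endosome sum went from 1034 to 977. Each of these groups also had members that rose. Other genes cover 95.4% of the exon bases of Rab8b and 91.4% of those of Rab1a, so the secretory vesicle and ER and Golgi sums are uncertain. Rab22a moved from rank 15 (145 normalized counts per kb) to rank 5 (396) among the RAB genes.

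Of the 14 genes assigned to the ER and Golgi, 11 were tested, of which 3 were higher, 3 lower and 5 not called. Rab1a (chromosome 11, 20151096 to 20176924), which acts in transport from the ER to the Golgi, had 4492.1, 4699.7 and 4215.9 normalized counts in WT and 3247.1, 3684.9 and 3475.3 in the libraries labelled GαqKO. Every value of the second group lay below WT, a log2 fold change of -0.37 (SE 0.054, adjusted p = 4.09e-05, limma). Its paralogue Rab1b (-0.20) and Rab2a (-0.42), which serves traffic between the ER and Golgi, fell as well. Of the exon bases of Rab1a, 91.4% lie inside other annotated genes, so its level depends on how the shared reads were assigned. After the median of its chromosome was removed, Rab1a remained lower (-0.25), while Rab1b (-0.06) and Rab2a (-0.07) were no longer called.

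The rises in this compartment were at Golgi genes. Rab30 (chromosome 7, 92390811 to 92493743), a Golgi RAB also linked to autophagy of bacteria, had 172.3, 214.7 and 179.1 normalized counts in WT and 509.9, 418.6 and 432.0 in the libraries labelled GαqKO. The groups were well apart, a 2.40-fold difference (log2 1.26, SE 0.107, adjusted p = 1.68e-07, limma). Rab33b (chromosome 3, 51391341 to 51403653), which binds the autophagy protein Atg16L1, had 240.2, 274.9 and 256.5 in WT and 450.7, 408.2 and 487.4 in the others. It rose by 0.80 on the log2 scale (SE 0.089, adjusted p = 2.85e-06, limma). The 25 other genes tested within 5 Mb of Rab33b had a median log2 fold change of 0.71, with 88.0% of them called higher, so Rab33b stood 0.09 above its neighbourhood. Around Rab30 the median of 30 genes was 0.15, but some genes close to it rose as well. Prcp, 29.9 kb away, had a log2 fold change of 1.02, Ankrd42 one of 1.55 and Pcf11 one of 0.35. Ddias, which lies closer to Rab30 than these, was not called (-0.1).

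Rab6a, which acts in traffic to, within and from the Golgi, was not called, with 1421.8 ± 81.9 in WT and 1522.5 ± 86.0 in the libraries labelled GαqKO (SD, n = 3 each; log2 0.10, 95% interval -0.03 to 0.22). Its more restricted paralogue Rab6b rose by 0.25. Rab18, Rab34, Rab36 and Rab2b were not called either, with log2 fold changes from -0.29 to 0.14. Rab19 and Rab33a were near 0 throughout. Rab43 was listed at 0 in all 6 libraries.

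Among the 12 secretory vesicle genes, 8 were tested, of which 4 were lower, 1 was higher and 3 were not called. Among all genes 34.1% were lower and 31.8% higher, and the difference from this background was not tested. Rab3b (chromosome 4, 108736260 to 108800521), a RAB of regulated exocytosis, had 90.8, 65.1 and 63.1 normalized counts in WT and 6.6, 8.1 and 6.0 in the libraries labelled GαqKO. The lowest WT value was several times the highest of the other group, and the log2 fold change was -3.22 (SE 0.276, adjusted p = 1.95e-07, limma). Rab3b passed the filter on low values only through WT. Within 5 Mb of Rab3b the median of 42 genes was -0.36.

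Rab3d, the RAB3 paralogue known from secretory granules, had 139.9, 155.4 and 154.7 in WT and 90.1, 87.9 and 96.7 in the libraries labelled GαqKO. It fell by 0.71 on the log2 scale (SE 0.128, adjusted p = 2.64e-04, limma), with no overlap. Rab3a, the synaptic vesicle RAB, was not called (135.6 ± 16.5 against 159.5 ± 10.9, SD, n = 3 each; log2 0.24). The summed epithelial and neuronal marker lists moved in the same direction as Rab3b and Rab3d. Of 6 epithelial markers, 2 were tested and both were lower. Of 5 neuronal markers, 2 were tested and 1, Tubb3, was lower (a mean of 406.3 in WT against 60.9). Syt1 was not called (log2 -0.88, adjusted p = 0.0755, limma). Rbfox3, Snap25 and Stmn2 had means of at most 5.2 and did not fall. The summed neuronal list, whose fall lay mainly in Tubb3, ran from 393.9 to 465.6 in WT and from 64.4 to 102.9 in the others. Their part in the RAB3 differences was not tested.

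Rab8b (chromosome 9, 66750892 to 66827023), which with Rab8a directs vesicles to the plasma membrane, had 1010.8, 1134.6 and 1050.4 normalized counts in WT and 566.2, 580.4 and 542.8 in the libraries labelled GαqKO. It fell by 0.92 on the log2 scale (SE 0.061, adjusted p = 1.33e-08, limma), while Rab8a was not called (1489.5 ± 32.6 against 1461.2 ± 40.4, SD, n = 3 each; log2 -0.03, 95% interval -0.13 to 0.07). Other genes cover 95.4% of the exon bases of Rab8b. Rab10, a relative of RAB8 that carries glucose transporter vesicles in fat cells, rose by 0.32, against a median of -0.28 for the 20 genes within 5 Mb. Rab13 was not called.

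The RAB27 proteins dock secretory organelles and multivesicular endosomes at the cell surface. Rab27b (chromosome 18, 70112202 to 70274903) had 403.1, 381.8 and 458.0 normalized counts in WT and 279.8, 319.1 and 286.0 in the libraries labelled GαqKO. It fell by 0.49 on the log2 scale (SE 0.090, adjusted p = 3.00e-04, limma) with no overlap, where the median of the 39 genes within 5 Mb was 0.28. Rab27a was too low to pass the filter, with values from 4.0 to 10.2. Together with Rab11a, Rab31 and Rab35, these are the RABs most often linked to exosome release. Of the 4 of these 5 genes tested, 0 were higher and 1, Rab27b, was lower (limma), beside 31.8% higher and 34.1% lower among all genes. Rab26, Rab37 and Rab3c had at most 7.3 normalized counts in any library.

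**Figure D2:**
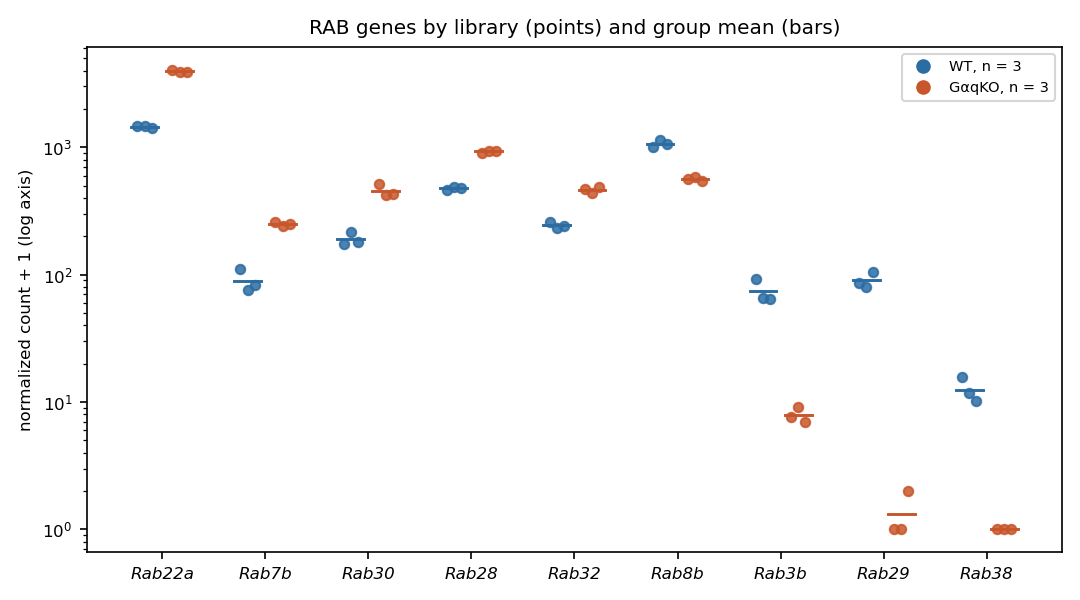
Normalized count plus 1 (log y axis) of 9 RAB genes (x axis) in each library (points) with the group mean (bars), for WT in blue and GαqKO in orange, 3 libraries each. The groups do not overlap for any of the 9, and Rab29 and Rab38 are at or near 0 in the GαqKO libraries.

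All 7 early endosome genes were tested, of which 3 were higher, 1 was lower and 3 were not called. The main change was in Rab22a (chromosome 2, 173501553 to 173549136), which acts on early endosomes and in the recycling of cargo taken up without clathrin. It had 1459.8, 1463.9 and 1408.7 normalized counts in WT and 4040.6, 3861.8 and 3929.4 in the libraries labelled GαqKO. The values were tight within each group and far apart between them, a 2.73-fold difference (log2 1.45, SE 0.043, adjusted p = 3.51e-12, limma).

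The genes around Rab22a were higher too. Of the 42 other genes tested within 5 Mb, 32 (76.2%) were called higher, 23 of them with a log2 fold change over 1, and their median was 1.14. Vapb, the neighbour 30.1 kb away that encodes an ER membrane tether, had a log2 fold change of 1.39, and Stx16, a syntaxin of the Golgi, 1.43. Pmepa1 on the other side went from 3974.5 to 2576.3 (log2 -0.63), so the shift did not hold for every gene of the window. Rab22a stood 0.30 above the median of its neighbourhood, while the median over all of chromosome 2 was 0.026. The cause of the shift over this interval was not tested.

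**Figure D3:**
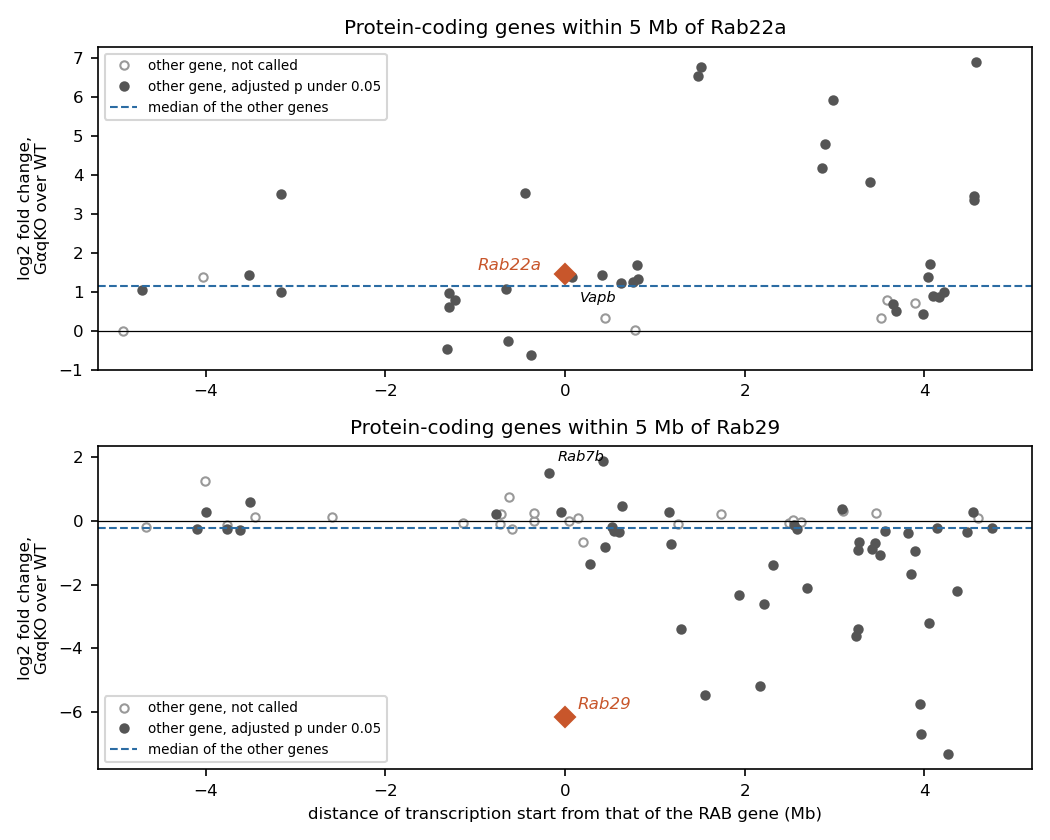
Log2 fold change, GαqKO over WT (y axis), of the protein-coding genes tested within 5 Mb of Rab22a (upper) and Rab29 (lower) against the distance between transcription starts in Mb (x axis). Rab22a lies close to the dashed median of its neighbours (1.14), whereas Rab29 lies far below that of its own (-0.23) and Rab7b above it.

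Among the other early endosome genes, Rab20 and Rab21 rose, Rab5b fell and the rest were not called. Rab20 (chromosome 8, 11503392 to 11528710), a RAB of endosome and phagosome maturation, had 114.9, 115.6 and 110.9 in WT and 204.7, 166.5 and 161.1 in the libraries labelled GαqKO. It rose by 0.63 (SE 0.127, adjusted p = 6.44e-04, limma), beside a median of 0.50 in the 35 genes within 5 Mb. The RAB5 proteins, which drive homotypic fusion of early endosomes, were led by Rab5c, with 3685.2 ± 100.7 in WT and 3761.9 ± 121.3 in the libraries labelled GαqKO (SD, n = 3 each; log2 0.03, 95% interval -0.06 to 0.12). Rab5a was likewise not called (823.2 ± 7.2 against 792.8 ± 76.9, SD, n = 3 each). Rab5b had 500.2, 545.0 and 468.2 in WT and 421.6, 424.3 and 420.9 in the others, a log2 fold change of -0.25 (adjusted p = 0.00732, limma) that was not called without WT replicate 2 (-0.20, adjusted p = 0.0508, limma) or after the chromosome median was removed (0.03). Rab31, which sorts cargo between the Golgi and endosomes, was not called, with 1678.0 ± 36.4 and 1578.6 ± 70.3 (SD, n = 3 each). Rab21, which recycles integrins, rose by 0.13 (adjusted p = 0.0376, limma), a call lost without any 1 of WT replicate 1, GαqKO replicate 1 and GαqKO replicate 3.

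Of the 10 recycling endosome genes, 6 were tested, with 1 higher, 2 lower and 3 not called. Rab4a (chromosome 8, 124532545 to 124568842), the RAB of fast recycling from early endosomes, had 163.9, 176.8 and 159.8 normalized counts in WT and 236.6, 261.3 and 253.8 in the libraries labelled GαqKO. It rose by 0.58 (SE 0.099, adjusted p = 1.50e-04, limma), beside a median of 0.55 in the 92 genes within 5 Mb. The slow recycling genes Rab11a (766.3 ± 71.5 against 729.1 ± 29.6, SD, n = 3 each; log2 -0.07) and Rab11b (573.1 ± 55.6 against 645.9 ± 20.6, SD, n = 3 each; log2 0.18, adjusted p = 0.0508, limma) were not called. Rab35, which returns cargo to the plasma membrane, was not called either (1626.4 ± 68.5 against 1733.9 ± 26.7, SD, n = 3 each). Rab12 fell by 0.52 and Rab14 by 0.26, both without overlap between the groups. Rab17 and Rab25, known mainly from epithelial cells, were too low to pass the filter, with values from 6.0 to 11.2 for Rab25 and at most 3.1 for Rab17. Rab4b and Rab15 were listed at 0 in all libraries.

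The late endosome and lysosome group held 7 genes, of which 5 were tested, with 2 higher, 2 lower and Rab7 not called. Rab29 (chromosome 1, 131794932 to 131802006), a RAB of the Golgi and lysosome known as an activator of the kinase LRRK2, had 85.6, 79.7 and 103.8 normalized counts in WT and 0.0, 0.0 and 1.0 in the libraries labelled GαqKO. It was thus at the floor of 3 normalized counts in every library of the second group, which makes it at least 29.9-fold lower, and limma gave a log2 fold change of -6.16 (SE 0.403, adjusted p = 1.16e-08). Rab29 passed the filter on low values only through WT. The nearest genes did not share the fall. Slc41a1, 18.3 kb away, had a log2 fold change of 0.27 and Nucks1, 36.1 kb away on the other side, -0.02. Among the 70 genes within 5 Mb the median was -0.23, 37 (52.9%) were called lower, beside 34.1% of all genes, and 17 of them had a log2 fold change under -1.

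Rab7b (chromosome 1, 131616433 to 131643180), a RAB of late endosomes that serves transport from endosomes to the Golgi, lies 152 kb from Rab29 and moved the opposite way. It had 109.6, 74.8 and 81.4 normalized counts in WT and 257.3, 239.3 and 247.7 in the libraries labelled GαqKO, a 2.82-fold difference with no overlap (log2 1.49, SE 0.144, adjusted p = 6.46e-07, limma). Rab7, the main RAB of late endosome and lysosome fusion, was not called, with 112.8, 126.3 and 134.4 in WT and 155.9, 152.6 and 137.0 in the others (log2 0.25, adjusted p = 0.0912, limma). Another annotated gene covers 32.6% of the exon bases of Rab7, so its level is uncertain. Rab9, which returns mannose 6-phosphate receptors to the Golgi, fell by 0.41, and by 0.14 without a call once the median of the X chromosome was removed.

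Rab32 and Rab38 are close relatives that build lysosome-related organelles such as melanosomes. Rab32 (chromosome 10, 10419907 to 10434013) had 255.8, 230.2 and 241.2 normalized counts in WT and 465.8, 435.9 and 486.4 in the libraries labelled GαqKO. It rose by 0.93 on the log2 scale (SE 0.081, adjusted p = 2.41e-07, limma), while the 28 genes within 5 Mb had a median of -0.45. Rab38, named after its values were seen, did not pass the filter on low values. It had 14.6, 10.7 and 9.2 in WT and was listed at 0 in all 3 libraries labelled GαqKO, at least 3.83-fold lower, and it was called lower in the fit with no filter (adjusted p = 2.59e-05, limma). Ctsc, 119 kb from Rab38, went from a mean of 317.7 to 0.8. Among 5 melanocyte markers, Tyr, Dct and Mlana had means of at most 1.8 in either group, and Pmel had 14.8 in WT and 8.1 in the others (log2 -0.86, adjusted p = 0.0745, limma). Mitf, a transcription factor also found outside melanocytes, went from 53.7 to 267.4. The summed melanocyte list, which Mitf alone raised, ran from 54.3 to 78.6 in WT and from 247.0 to 293.7 in the others, and its part in the Rab32 difference was not tested. Rab9b had at most 2.8 counts.

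Of the 9 genes of the cilium, autophagy and other roles, 5 were tested. Rab28 (chromosome 5, 41782308 to 41865531), a RAB of the cilium and photoreceptors, had 461.5, 489.6 and 480.4 normalized counts in WT and 897.7, 940.0 and 939.6 in the libraries labelled GαqKO. This was a 1.94-fold rise without overlap (log2 0.95, SE 0.058, adjusted p = 5.39e-09, limma), where the 29 genes within 5 Mb had a median of 0.34. Rab39b (chromosome X, 74615652 to 74621853), known from neurons and autophagy, had 177.5, 168.1 and 195.4 in WT and 93.9, 90.2 and 119.8 in the others. It fell by 0.83 (SE 0.139, adjusted p = 1.26e-04, limma), and the 53 genes within 5 Mb had a median of -0.32. Rab23, which restrains Hedgehog signalling, Rab24 and Rab40c were not called. Rab42 had values from 1.0 to 4.2 in WT and from 9.2 to 13.1 in the libraries labelled GαqKO, and Rab39, Rab40b and Rab44 were at or below 13.6 in every library, and none of these 4 passed the filter on low values.

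The 17 RAB genes not tested are not shown to be unexpressed. Rab43, Rab4b and Rab15 were the 3 RAB genes listed at 0 in all 6 libraries, and other annotated genes cover between 99.7% and 100.0% of their exon bases. In all, 5 RAB genes have at least 90% of their exon bases inside other genes, the others being Rab8b and Rab1a, and 29 have none. Among the other RAB genes tested, the cover was above that of Rab7 for several. It was 64.2% for Rab10, 50.5% for Rab2b, 46.7% for Rab18, 45.5% for Rab39b, 40.3% for Rab11a, 37.7% for Rab24 and 35.3% for Rab20. The levels of these genes are uncertain as well.

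Because near relatives can stand in for each other, the share of each paralogue in the summed level per kb of its subfamily was compared between the groups. Of the RAB22 subfamily, Rab22a made up 35.6% ± 0.266 in WT and 61.6% ± 1.15 in the libraries labelled GαqKO (SD, n = 3 each), with Rab31 as the rest. Rab3a went from 50.2% ± 1.49 to 75.5% ± 1.53 of RAB3 (SD, n = 3 each), and Rab3b from 21.5% ± 2.51 to 2.62% ± 0.497 (SD, n = 3 each). Rab8b went from 47.9% ± 1.56 to 33.2% ± 1.26 of RAB8, and Rab7b from 47.5% ± 6.96 to 68.2% ± 1.56 of the summed level of Rab7 and Rab7b (SD, n = 3 each). Other genes cover 95.4% of the exon bases of Rab8b and 32.6% of those of Rab7, so the RAB8 and RAB7 shares are uncertain.

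The libraries did not overlap in any of these 5 shares, and each gave p = 0.1 in the two-sided exact permutation test, the smallest that 3 against 3 can give (adjusted p = 0.144 over 13 shares, permutation). In all, 9 of the 13 shares reached this smallest p, among them small shifts such as that of Rab5c, which made up 75.0% ± 0.732 of RAB5 in WT and 77.2% ± 1.49 in the libraries labelled GαqKO (SD, n = 3 each). The others were those of Rab1a (47.5% and 44.7% of RAB1), Rab3d (28.3% and 21.9%) and Rab5b (11.7% and 9.90%). Rab2a made up 97.2% and 97.0% of RAB2 (exact p = 0.7).

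**Figure D4:**
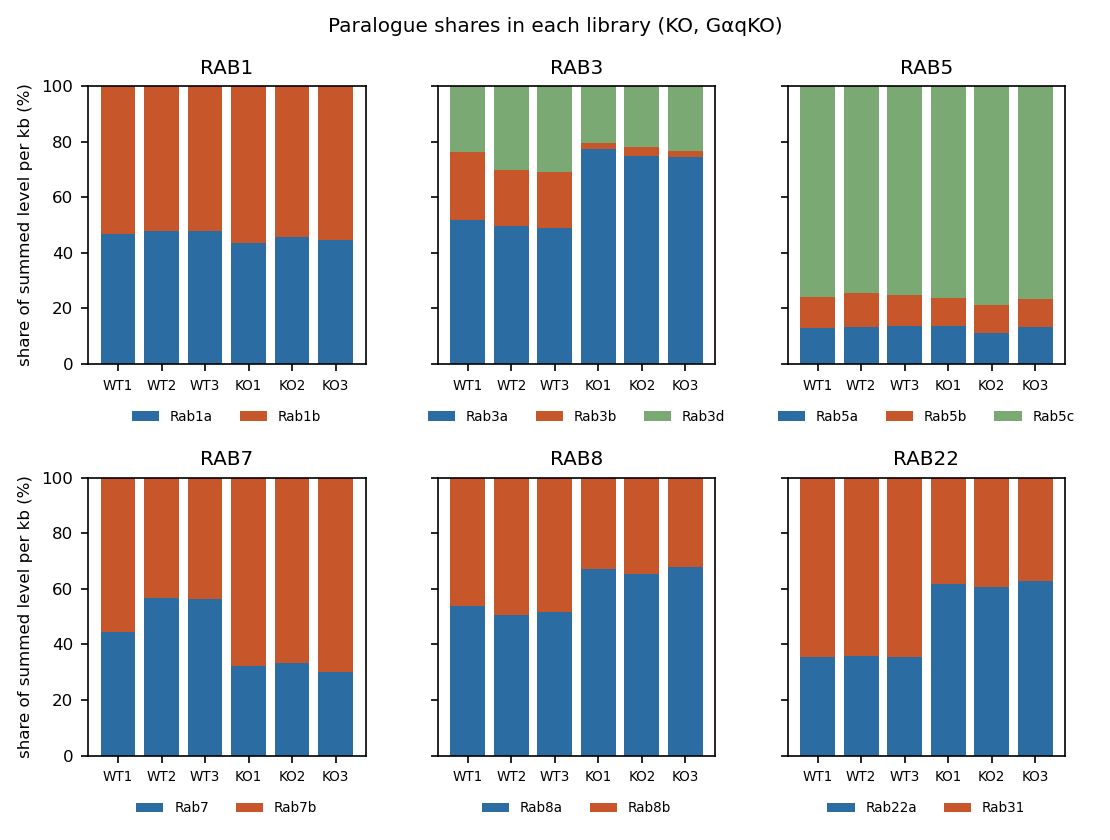
Share of each paralogue in the summed normalized counts per kb of its RAB subfamily (y axis, %) in each of the 6 libraries (x axis). The Rab22a share of RAB22 is 35.6% on average in WT and 61.6% in GαqKO, the Rab3b band almost vanishes, and the RAB1 and RAB5 shares shift by at most 2.79 percentage points.

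The proteins that load, switch and read RABs were examined as lists of 145 genes, of which 125 were tested. Of these, 36 rose in the libraries labelled GαqKO, 52 fell and 37 were not called, or 28.8% and 41.6%, beside the same background of 31.8% and 34.1% (limma). In the lipid-tail and extraction machinery, 3 of 7 genes were higher and 3 lower. Rabggta, the alpha subunit of RAB geranylgeranyl transferase, went from 127.3 ± 11.9 to 258.5 ± 22.4 (SD, n = 3 each; log2 1.02), and its partner Rabggtb rose by 0.35. The extraction factor gene Gdi2 fell, with a log2 fold change of -0.42, as did the escort protein gene Chm with -0.60 (limma). These were named after their values were seen, apart from Rabggta.

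Of 36 exchange factors, 11 were higher and 17 lower. Rin2, an exchange factor for RAB5, had 171.2, 160.3 and 148.6 normalized counts in WT and 754.0, 788.6 and 701.9 in the libraries labelled GαqKO (log2 2.22, SE 0.084, adjusted p = 3.96e-11, limma). Its relative Rin3 moved the other way, from 112.8 ± 6.5 to 6.4 ± 3.5 (SD, n = 3 each; log2 -4.04). Rab3il1, an exchange factor for RAB8 and RAB3, rose by 2.50, and Als2cl, Dennd3 and Dennd2c fell, with log2 fold changes of -1.67, -1.58 and -1.56. Hps1 and Hps4, whose products together activate RAB32 and RAB38, rose by 1.22 and 0.44 (limma), named after their values were seen.

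Of 38 GTPase-activating proteins, 11 were higher and 14 lower. Tbc1d2, which acts on RAB7, rose by 2.26, and Tbc1d4, which acts on RAB10 in fat and muscle cells, by 1.05. Sgsm1 had 40.7, 48.6 and 46.8 in WT and was listed at 0 in all 3 libraries labelled GαqKO, at least 15.1-fold lower. It passed the filter only through WT. Tbc1d9, Tbc1d8b and Grtp1 fell, with log2 fold changes of -2.07, -1.72 and -1.65 (limma). Other genes cover 68.0% of the exon bases of Grtp1, so its level is uncertain.

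Of 41 effectors, 10 were higher and 16 lower, and all 7 past the fold threshold were lower. Among all genes, 10.2% were higher and 10.5% lower past that threshold, and the difference from this background was not tested. Bicd1, a dynein adaptor bound by RAB6, had 366.5, 359.4 and 393.9 normalized counts in WT and 4.7, 5.8 and 7.0 in the libraries labelled GαqKO (log2 -5.79, SE 0.201, adjusted p = 1.86e-11, limma). The actin-oxidising enzymes Mical1 and Mical2, of which MICAL1 binds RAB8 and its relatives, had log2 fold changes of -5.53 and -2.08 and both passed the test. Bicd1, Mical1 and Rab11fip4, all among the 7, passed the filter only through WT, with fewer than 10 normalized counts in each library labelled GαqKO. The RAB3 and RAB27 effector genes Rims2 and Rph3al fell, with log2 fold changes of -3.47 and -2.41, in the same direction as Rab3b, Rab3d and Rab27b. Optn, which encodes an effector of RAB8, fell by 1.29. Lrrk2, a kinase that phosphorylates RAB8 and RAB10 and is recruited by RAB29, went from 275.3 ± 9.7 to 672.1 ± 22.8 (SD, n = 3 each; log2 1.28, adjusted p = 1.58e-09, limma), while Rab29 was at the floor.

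**Figure D5:**
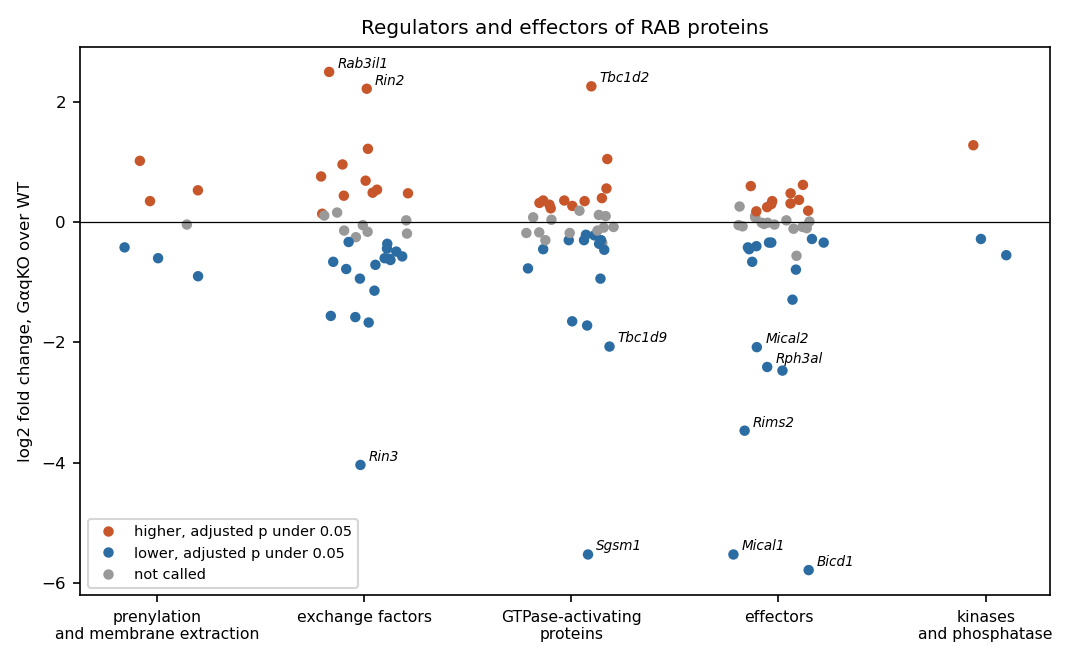
Log2 fold change, GαqKO over WT (y axis), of the 125 genes tested that regulate or are bound by RAB proteins, in columns by role (x axis; horizontal scatter within a column carries no meaning). Rab3il1, Rin2 and Tbc1d2 lie above 2, while Bicd1, Mical1 and Sgsm1 lie below -5.

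In the stretches before the starts of the 48 RAB genes with a RefSeq entry, the CCAAT box was found on either strand, in at least 1 stretch, in 24 (50.0%), against 37.5% of the 27025 genes of the table. The CLEAR core TCACGTGA, letters that the lysosome regulator TFEB binds and that contain the E-box CACGTG, was found in 2 RAB genes (4.17%, against 0.907%), Rab5a and Rab21. The E-box itself was found in 5 (10.4%, against 6.86%), the AP-1 letters TGACTCA in 2 (4.17%, against 5.16%) and TGACGT, the start of the cAMP response element, in 7 (14.6%, against 7.29%). The 2 stretches with the CLEAR core follow, as the only RAB genes that hold it, with all of these motifs in capitals.
Rab5a, chr17:53478984-53479233, plus strand: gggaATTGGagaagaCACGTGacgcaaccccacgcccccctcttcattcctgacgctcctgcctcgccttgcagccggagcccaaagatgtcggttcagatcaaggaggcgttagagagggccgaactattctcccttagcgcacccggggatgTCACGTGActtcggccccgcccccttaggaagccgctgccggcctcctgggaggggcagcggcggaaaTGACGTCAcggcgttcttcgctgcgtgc
Rab21, chr10:115315592-115315841, minus strand: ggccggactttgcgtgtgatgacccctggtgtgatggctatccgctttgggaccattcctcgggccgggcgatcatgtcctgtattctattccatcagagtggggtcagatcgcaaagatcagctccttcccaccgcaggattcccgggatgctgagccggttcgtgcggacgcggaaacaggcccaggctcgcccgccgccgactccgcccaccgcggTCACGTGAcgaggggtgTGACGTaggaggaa
Both genes encode early endosome RABs, and their log2 fold changes were -0.06 for Rab5a and 0.13 for Rab21.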

How the data were processed

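RNA from 3 WT and 3 GαqKO libraries of MEFs was sequenced after poly-A selection in paired-end reads. Alignment to GRCm39 by Rbowtie2 and gene counting by featureCounts with GENCODE release 32 were done by the authors, who used DESeq2. The deposited values are a signal, the count of a gene scaled by the size factor of its library. featureCounts and GRCm39 are also named in the submitters' processing notes. Rbowtie2 does not split reads over introns, so reads across exon junctions can be lost or placed on intronless copies. The strand setting, low-count filter and tool versions are not given in the sources used here.

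Symbols and positions came from GENCODE release 39, which matched 98.9% of the identifiers. limma with a trend in the prior spread was fitted to log2(normalized count + 1) of the 14096 genes reaching 10 normalized counts in 3 or more libraries, with genotype alone as the term. This scale understates the change of low genes. Intervals are 95% intervals, and the floor of 3 normalized counts covers counting error only. Depth was recovered for 5 libraries, where 100.0% of the values were whole multiples (within 0.1 of a step) of a single read's worth, giving 9853000 to 12229175 reads. The total of GαqKO replicate 3 was not used, so edgeR and DESeq2 were run on 5 libraries as alternatives. edgeR put the common coefficient of biological variation at 5.21%.

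Shares of paralogues were compared by a two-sided exact permutation test. The RAB genes, compartments, regulator lists and marker lists were chosen with earlier results of these data known. Named with values were RAB genes with an adjusted p under 0.05 and a log2 fold change over 0.58 or under -0.58, 13 RAB genes whatever their values (Rab1a, Rab4a, Rab5a, Rab5b, Rab5c, Rab6a, Rab7, Rab11a, Rab11b, Rab27a, Rab27b, Rab31 and Rab35), and in each regulator role up to 6 genes of largest change past the log2 threshold of 1 whose mean was 20 normalized counts or more. Other genes were named after their values were seen, as were the windows of 5 Mb. Alternatives were other scalings, filters, pseudocounts, a replicate block, the count tests and each library left out. Removal of chromosome medians was added after seeing the data. The fitting script was tested on simulated data. The tools were limma 3.58.1, DESeq2 1.42.0 and edgeR 4.0.16 under R 4.3.3, and pandas 2.3.3, numpy 2.4.6, matplotlib 3.10.9 and scipy 1.17.1 under Python 3.11.15.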

Additional observations from a re-analysis of the deposited data

How the results depend on the processing

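Under the 17 alternatives the RAB genes called higher numbered 10 to 14 and those called lower 10 to 14, and the regulators 32 to 38 and 47 to 53. Of the 24 RAB genes called, 19 kept direction and call in every alternative that tested them, and 5 (Rab1b, Rab2a, Rab5b, Rab9 and Rab21) lost the call in at least 1, Rab21 in 7. Of the 18 not called, 10 were called in at least 1. The count of 5 RAB genes past the fold threshold ranged from 3 to 5 as each library was left out, was 3 with at least 10 normalized counts in every library, 7 with no filter (Rab38 lower and Rab42 higher being added) and 6 after chromosome medians were removed (Rab32 being added). It is 3 without any 1 WT library because Rab29 and Rab3b then fail the filter. Rab29 was tested in 13 alternatives, with log2 fold changes from -9.45 to -4.15. Removal of chromosome medians turned the sign of Rab36 (0.09), Rab6a (-0.08), Rab13 (-0.29), Rab3a (-0.06) and Rab5b (0.03), of which only Rab5b had been called, and took Rab33b to 0.47, Rab20 to 0.34 and Rab4a to 0.29, all still called. As each library was left out, Rab13, not called, ranged from -0.05 to 0.13 and Rab5a, not called, from -0.10 to 0.02.

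Same-numbered libraries did not deviate together (correlations of -0.045, -0.148 and -0.064), so the numbers were not taken as a pairing. With a replicate block 10 RAB genes were higher and 13 lower, 5 were past the fold threshold, and 36 regulators were higher and 52 lower. The RAB genes that lost the call under it were Rab21 alone (limma, adjusted p = 0.0703). The mean differences in paralogue share cannot change under the block. They were 26.0 percentage points for Rab22a, 25.3 for Rab3a, -18.9 for Rab3b, 20.7 for Rab7b and -14.7 for Rab8b. An exact permutation test that swapped the groups within each replicate number gave p = 0.25 for each, the smallest that 3 pairs can give. The filter on low values, not depth alone, sets which RAB genes were tested: 42 with it and 56 without.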
